A study of Olea europaea with 6 samples.

Results

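The array held 5543 olive expressed sequence tags (ESTs, single reads of cDNA clones), and 143 of them were clearly higher in mature than in juvenile leaves of the off year, and less so, or lower, in mature leaves of the on year. A member had a mean log2 signal that was greater in OFF-M than in OFF-J by at least 2, and a difference between ON-M and ON-J below 1. Of the olive ESTs, 175 met the off-year condition and 145 met both. A list of 5 ESTs was left out by name, 2 of which met both conditions, so that 143 remained of the 5543 olive ESTs and of the 54615 probe sets on the array. Another 27 olive ESTs were higher at maturity in both years. The leaf arrays chose the members, so every leaf value of a member is given as a description, with no test. The fruit arrays had no part in that choice, and the comparison of ripe with unripe fruit is the only one tested.

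The RNA came from olive trees (Olea europaea) of the cultivar Ayvalık, and no group was treated. Juvenile leaves were picked in July and mature leaves in November, in an off year without fruit (OFF-J, OFF-M) and in an on year with fruit (ON-J, ON-M). Unripe fruits (UF) were picked in July and ripe fruits (RF) in October from a bearing tree, in the same calendar year as the off-year leaves. The on-year leaves were picked in the calendar year before, and the on-year and off-year trees stood side by side, so that bearing year, calendar year and tree cannot be told apart. The study's methods give 2 biological replicates a group. There were 11 arrays here, 2 in each group except ON-M, which had 1, so that the ON-M mean is 1 value without a spread. The methods name only 2 trees for the leaves, and nothing in the sources used here says that replicates of a group came from separate trees. The p-values thus cover no more than the variation among these arrays, which could be technical.

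Olive is an alternate-bearing tree, in which a heavy crop is followed by a year with little or no fruit. Flowers of the next spring form on shoots that grew during the off year, and fruits and shoots draw on the same sugars and starch. Leaves make and export these carbohydrates, and growing fruits take them up. Ripening of an olive includes loss of chlorophyll, build-up of anthocyanin pigment, storage of oil and softening of the cell walls.

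The labels of the organs were checked against 7 olive ESTs annotated with photosynthesis or chlorophyll, 2 of which are members. Their median log2 signal lay between 10.10 and 12.07 in the 4 leaf groups, at 9.49 in UF and at 5.63 in RF. The EST FL683529_1, annotated with anthocyanin biosynthesis, had a mean of 15.13 in RF and between 5.73 and 7.49 elsewhere. The study picked these ESTs on these same samples, so their values are no independent check of the labels. The random control probes of the array, which match no olive sequence, gave between 5.18 and 5.48 on the 11 arrays and mark the background here. The median of all olive ESTs was between 10.66 and 11.43 on the leaf and UF arrays and at 9.83 and 10.22 on the RF arrays.

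The members were not spread evenly over the cDNA libraries from which the ESTs had been sequenced. The flower library gave 103 members, 13.6% of its 757 ESTs. The library of leaves and fruits gave 29 of 3706 (0.783%), the library of fruitlets, which are young fruits, gave 8 of 1021 (0.784%), and 3 came from other sources. In the study's annotation tables, 91 members carried carbohydrate metabolism as their only process, and these are called the carbohydrate ESTs below. All 91 came from the flower library, whereas the members as a whole came from all of the libraries. The tables list 97 olive ESTs with that annotation alone. Of the 6 that are not members, 4 were also higher at maturity in the on year, by 1.13 to 1.38, FN998333_1 missed the off-year limit at 1.9952 and GO242798_1, from leaves and fruits, stood at 1.19. The tables list transcripts picked by the study on these same samples, so the number of carbohydrate ESTs among the members is no independent evidence of a direction. Whether the 91 ESTs are 91 genes is not known, since reads of 1 transcript can be listed as several ESTs and probes of near-identical transcripts bind the same RNA. The other 52 members comprised 21 with another annotated process, 20 of unknown process and 11 that the tables do not hold.

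The carbohydrate ESTs had like profiles over the groups, with exceptions given below. Their median signals in log2 units were 8.79 and 7.96 on the OFF-J arrays and 11.03 and 11.31 on the OFF-M arrays. On the on-year arrays the medians were 9.34 and 9.87 in ON-J and 9.85 in ON-M. The off-year juvenile leaves were thus the lowest of the leaf groups, the off-year mature leaves the highest, and the on-year mature leaves stood beside the on-year juvenile ones. In fruits the medians were 9.36 and 9.52 in UF and 11.71 and 12.04 in RF, above every leaf array. The group mean was lowest in OFF-J for 89 of the 91 and highest in RF for 87. The rule favours a low OFF-J and a high OFF-M, so the order of these leaf groups in part describes the choice. The lowest and highest groups were not counted over all olive ESTs.

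**Figure D1:**
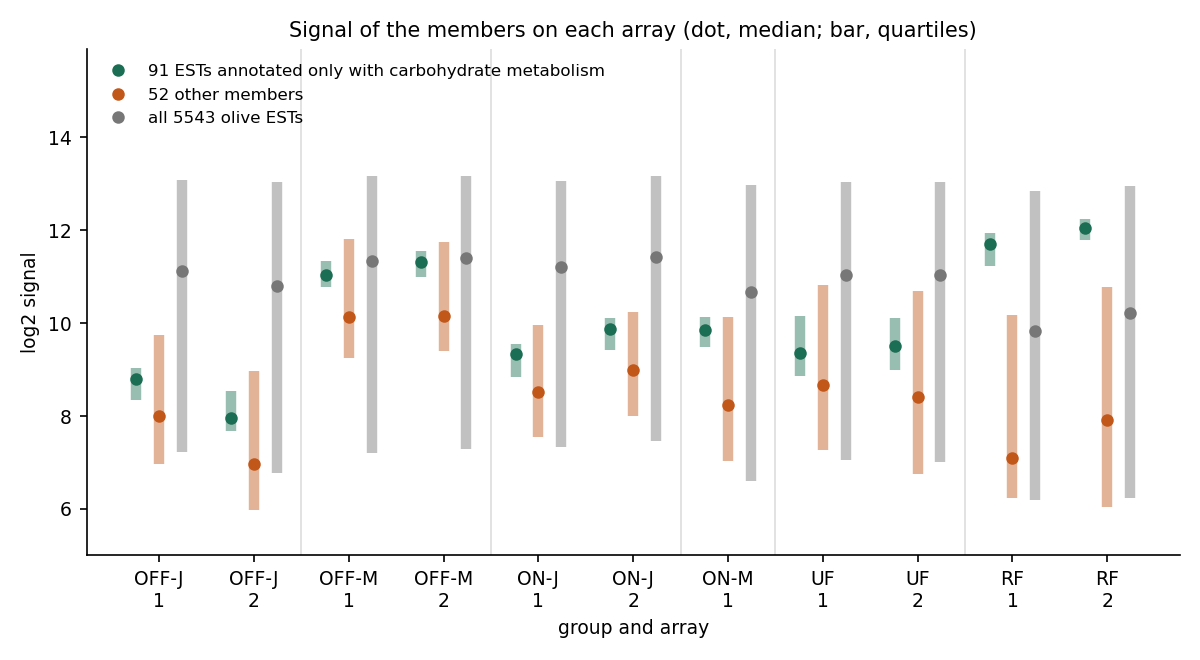
Median (dot) and quartiles (bar) of the log2 signal on each of the 11 arrays, for the 91 carbohydrate ESTs, the 52 other members and all 5543 olive ESTs. The carbohydrate ESTs form a narrow band that is lowest on the OFF-J arrays and highest on the RF arrays, while the median of the other members is highest in OFF-M and lower in RF, at 7.10 and 7.91, than in UF, at 8.67 and 8.42.

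The off-year difference of the carbohydrate ESTs had a median of 2.72 on the log2 scale, a 6.57-fold difference, and ranged from 2.00 to 3.70. The on-year difference had a median of 0.32, and it was below 0 for 14 of the 91. Over all 5543 olive ESTs its median was -0.195, and it was below 0 for 3525. On the on-year side the single ON-M value was above both ON-J arrays for 50 of the carbohydrate ESTs, between them for 38 and below both for 3. The rule holds the on-year difference below 1, and this split was not counted over all olive ESTs. The gap between years was present in the juvenile leaves and had the opposite sign there: ON-J was above OFF-J by a median of 1.08 on the log2 scale, and OFF-M was above ON-M by a median of 1.35. Every OFF-M array was above every OFF-J array for all 143 members, where 42.2% of all olive ESTs did so. Both gaps between years held for nearly all members: every ON-J array was above every OFF-J array for 141 of the 143, where 45.7% of all olive ESTs did so, and every OFF-M array was above the ON-M array for 143, where 65.3% did. The condition that chose the members favours a low OFF-J and a low ON-M, so these counts describe the choice.

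**Figure D2:**
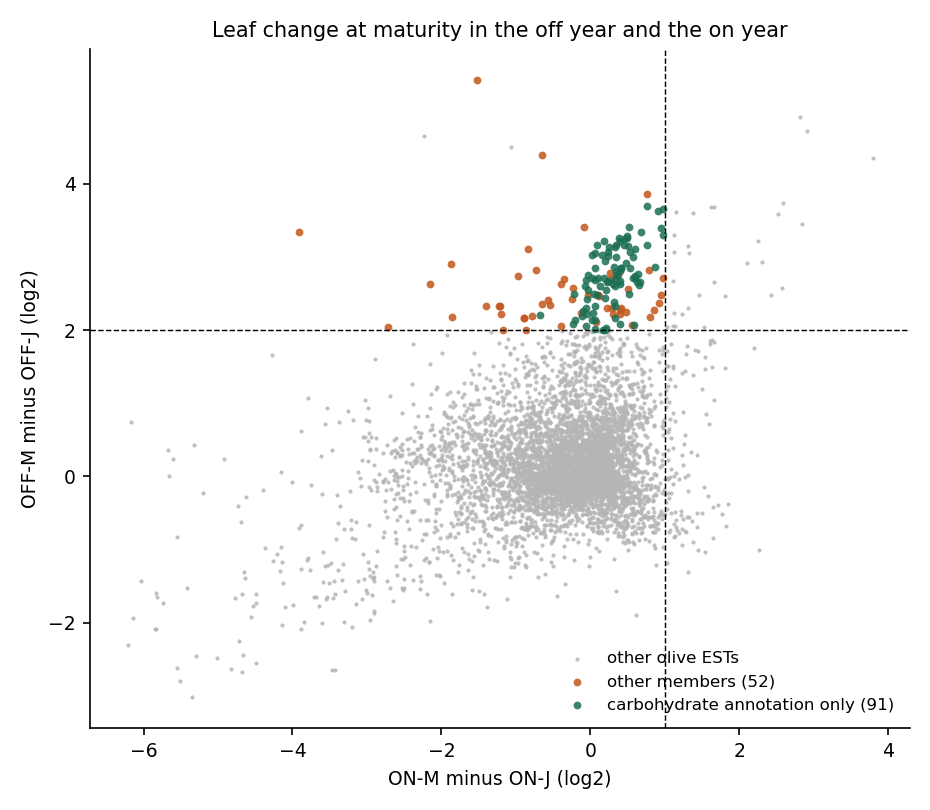
Mean log2 difference OFF-M minus OFF-J (vertical) against ON-M minus ON-J (horizontal) for each olive EST, with the limits of 2 and 1 as dashed lines. The carbohydrate ESTs lie together between -0.67 and 0.98 on the on-year axis, while the other members reach -3.91.

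Individual carbohydrate ESTs show how alike the values were. FN998711_1, the EST with the median difference between the fruits, gave 9.06 and 8.64 in OFF-J, 11.60 and 11.58 in OFF-M, 9.53 and 10.20 in ON-J and 10.47 in ON-M. The same EST gave 9.61 and 9.71 in UF and 11.84 and 11.98 in RF, and neither the OFF-M and OFF-J arrays nor the fruit arrays overlapped. FN998538_1 had the largest off-year difference of the carbohydrate ESTs, 3.70, from 6.85 and 5.59 in OFF-J to 9.87 and 9.98 in OFF-M. In the on year FN998538_1 stood at 7.40 and 7.90 in ON-J and at 8.41 in ON-M, a difference of 0.76. FN998669_1, FN998502_1, FN997873_1 and FN998472_1 followed with off-year differences of 3.65, 3.63, 3.42 and 3.40. FN998502_1 was dim, at 5.15 and 5.12 in OFF-J, below the random control, and at 8.64 and 8.89 in OFF-M. The RF values of FN998502_1, 5.58 and 6.00, were close to its UF values of 5.08 and 5.14, so it was one of the few carbohydrate ESTs that were not high in ripe fruit.

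The likeness of these profiles was described with Pearson's r over the 11 arrays, which share hybridization and normalization. These arrays include the leaf arrays that chose the members, so a part of the likeness was set by that choice, for all members alike. The median r between pairs of carbohydrate ESTs was 0.971, with 0.837 and 0.995 as the 5th and 95th percentiles, and among the other members it was 0.46. Of the 91 carbohydrate ESTs 80 had an r of at least 0.95 with the mean of the 91, to which each of them contributes, and the lowest had 0.28. Among the other members 3 reached 0.95, all from the flower library, and so did 32 olive ESTs outside the membership, 10 of which were from the flower library. Of these 32 ESTs 30 were below the off-year limit of 2, so a like profile was also seen at a smaller amplitude.

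In the fruits, which had no part in the choice, more of the 143 members were called higher in ripe fruit than in unripe fruit. Neither call was made for 62 members, 32 of the carbohydrate ESTs and 30 of the others. Of the members 65 were called higher in RF than in UF, that is 59 of the 91 carbohydrate ESTs and 6 of the 52 others, where 3.73% of all olive ESTs and 3.3% of all probe sets were called in that direction. The opposite call was made for 16 members, 0 of the carbohydrate ESTs and 16 of the others, where 17.3% of all olive ESTs and 3.46% of all probe sets were called. A call needed an adjusted p under 0.05 in limma over all 54615 probe sets and a log2 difference of at least 2. At the adjusted p alone 88 carbohydrate ESTs were higher in RF and 0 were lower, where 20.8% and 31.8% of all olive ESTs were. At an unadjusted p under 0.05 in limma the counts were 90 and 0 (26.1% and 36% of all olive ESTs), and by the methods' t-test without adjustment, with a difference of at least 2, they were 59 and 0 (3.25% and 16.1%). When each array was centred on the median of its olive ESTs, the calls became 105 higher and 10 lower among the members, and 893 higher and 593 lower among all olive ESTs in place of 207 and 959.

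RF exceeded UF by a median of 2.25 on the log2 scale over the carbohydrate ESTs, a 4.77-fold difference, beside a median of -0.11 over all olive ESTs. Both RF arrays were above both UF arrays for 90 of the 91, where 37.9% of olive ESTs were, and the remaining 1 overlapped. FN998323_1 rose the most of them, from 9.39 and 9.38 in UF to 12.25 and 12.76 in RF, a difference of 3.12 ± 0.37 (standard error, adjusted p = 0.000597). FN997851_1 rose from 8.86 and 8.90 to 11.72 and 12.11, by 3.04 ± 0.32 (adjusted p = 0.000339). FN998711_1, given above with its 11 values, rose by 2.25 ± 0.28 (adjusted p = 0.00068). FN998444_1, which had the lowest difference of the 91, gave 5.92 and 6.04 in UF and 4.98 and 6.01 in RF, near the random control, a difference of -0.48 ± 0.40 (adjusted p = 0.373). Of the flower-library ESTs outside the membership 1.53% were called higher in RF, beside 60.2% of the flower-library members.

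**Figure D3:**
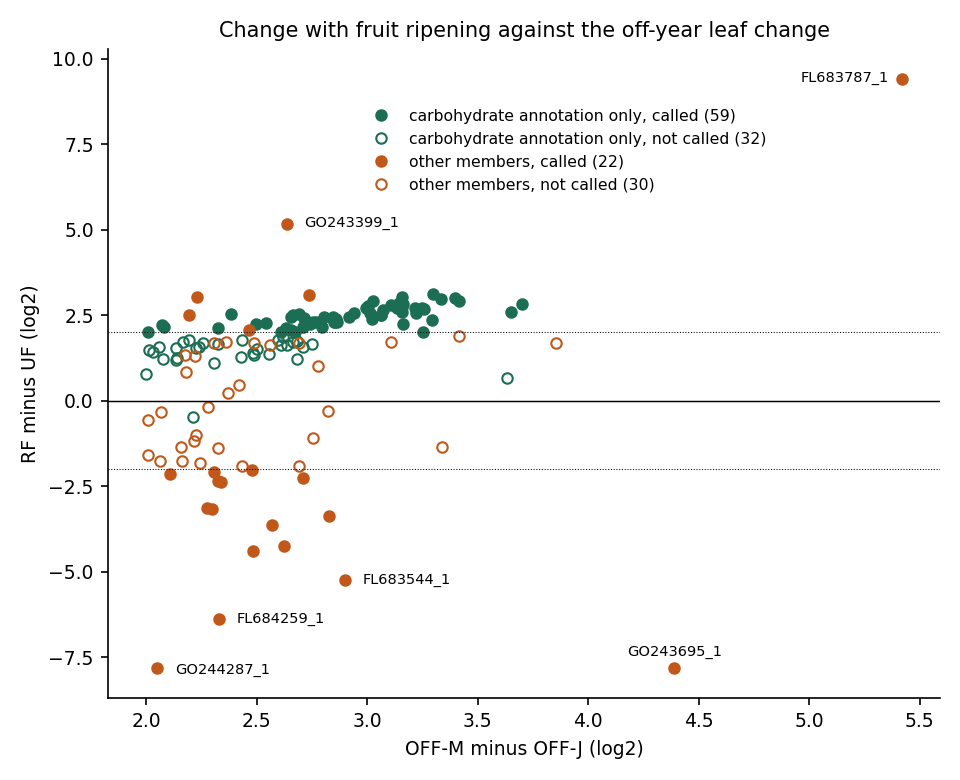
Difference RF minus UF (vertical, log2) against OFF-M minus OFF-J (horizontal, log2) for the 143 members, with filled points for the 81 called between the fruits and dotted lines at a difference of 2 in either direction. The carbohydrate ESTs lie above 0 except for 1 at -0.48, and the other members spread from -7.82 to 9.41.

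Among the other 52 members the median difference RF minus UF was -1.13, or -0.12 with olive-median centring. Both RF arrays were below both UF arrays for 30, where 44.8% of olive ESTs were, and above them for 18, where 37.9% were. The difference between libraries was not tested. Of the 8 fruitlet members 6 were called higher in UF and 1 higher in RF, and of the 29 from leaves and fruits 9 and 1, with 19 not called. In the whole libraries 15.1% of fruitlet ESTs and 20.1% of those from leaves and fruits were called higher in UF. Higher in RF were 4.21% and 2.43%. OFF-M was the highest of the 6 groups for 32 of the 52, RF for 9 and UF for 11. The rule favours a high OFF-M, and the highest group was not counted over all olive ESTs.

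Members annotated with the cell wall, the polysaccharide layer that shapes and stiffens plant cells, numbered 4 of the 15 such olive ESTs in the tables. GO244287_1 was sorted here by an annotation with cell wall organization, though the study also lists it as of unknown process. GO244287_1 gave 9.98 and 9.44 in OFF-J and 11.80 and 11.72 in OFF-M. In the on year the same EST went the other way, with 10.77 and 10.82 in ON-J and 8.08 in ON-M. In fruits it fell from 13.87 and 13.69 in UF to 5.71 and 6.21 in RF, by 7.82 ± 0.27 on the log2 scale (adjusted p = 7.52e-07). It was thus bright in unripe fruit and near background in ripe fruit, where the size of a difference depends on the background. GO245328_1, annotated with deposition of callose, a glucan laid down at wounds and sieve pores, and with salicylic acid biosynthesis, gave 10.35 and 10.00 in OFF-J, 12.81 and 12.96 in OFF-M, 10.81 and 11.28 in ON-J and 12.02 in ON-M. GO245328_1 fell with ripening from 13.71 and 13.70 to 11.38 and 11.50, by 2.27 ± 0.24 (adjusted p = 0.000358), a call that was lost at -1.26 when arrays were centred on their olive medians.

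The other 2 cell wall members, FN998235_1 and FN998036_1, came from the flower library and share a list of terms that includes proton transport driven by ATP hydrolysis. They behaved alike in leaves, with off-year differences of 2.78 and 2.69 and on-year differences of 0.27 and 0.28. Their fruit differences, 1.01 ± 0.34 (adjusted p = 0.0517) and 1.70 ± 0.39 (adjusted p = 0.0122), were under the limit of 2. FN998036_1 passed it without RF replicate 1, at 2.13, and with olive-median centring both did, at 2.02 and 2.71. Over all 15 ESTs of the cell wall list 1 was called higher in RF and 8 higher in UF, with a median of -2.27. Of all olive ESTs 3.73% and 17.3% were so called. The study picked the listed ESTs on these same samples, and of the 186 listed with unknown process 14 were called higher in RF and 92 higher in UF.

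The defense list, which covers responses to fungi, bacteria, nematodes and wounds, held 6 members of its 23 olive ESTs. GO245328_1, FN998235_1 and FN998036_1 also carry defense terms but were sorted under the cell wall above, and GO245328_1 was called. FN998690_1, annotated with aging, ethylene response and proteolysis, had the largest off-year difference of the 6, 3.11, from 6.85 and 5.22 in OFF-J to 8.97 and 9.32 in OFF-M. In the on year FN998690_1 was lower at maturity, with 7.78 and 7.99 in ON-J and 7.04 in ON-M. Its UF values of 5.24 and 5.12 were at the random control and its RF values were 6.62 and 7.18, a difference of 1.72 ± 0.47 that was not called (adjusted p = 0.0234). GO243101_1, annotated with starch metabolism and circadian rhythm beside defense, gave 8.69 and 8.02 in OFF-J, 11.12 and 11.25 in OFF-M, 9.22 and 9.71 in ON-J and 8.74 in ON-M. GO243101_1 was the only member of the defense list called between the fruits, with 11.01 and 10.83 in UF and 7.19 and 7.93 in RF, a fall of 3.36 ± 0.34 (adjusted p = 0.000231). 

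FN997987_1, annotated with the MAPK cascade, a chain of kinases that passes on stress signals, had an off-year difference of 2.49 and an on-year difference of -0.03. Its fruit values were 8.82 and 8.65 in UF and 10.08 and 10.76 in RF, a difference of 1.69 ± 0.29 (adjusted p = 0.00341) that passed the limit without RF replicate 1, at 2.02. GO243143_1, whose terms include jasmonic acid, salicylic acid and sucrose responses, gave 8.05 and 7.71 in UF and 9.00 and 9.35 in RF. GO243251_1, annotated with responses to karrikin, a smoke compound, and to nematodes, gave 13.89 and 13.85 in UF and 12.87 and 12.54 in RF. GO244440_1 carried carbohydrate metabolism together with defense, and it was brighter in leaves, between 11.65 and 13.91, than in fruits, between 9.31 and 10.98. None of these 4 was called, but with olive-median centring GO243143_1, at 2.30, GO244440_1, at 2.34, and FN997987_1 passed the limit. Over the 23 ESTs of the defense list 0 were called higher in RF and 10 higher in UF, where 14 and 92 of the 186 listed ESTs of unknown process were. At an unadjusted p under 0.05 in limma the counts of the defense list were 6 and 17, where 26.1% and 36% of all olive ESTs were.

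Members of specialised and hormone metabolism were 2 of 25. GO245800_1 is annotated with phenylpropanoid metabolism, the route to lignin and phenolics, and with the synthesis of S-adenosylmethionine, the main methyl donor of cells. It gave 6.31 and 5.42 in OFF-J, 9.59 and 9.85 in OFF-M, 6.92 and 7.04 in ON-J and 7.74 in ON-M, an off-year difference of 3.86, the third largest of all members. GO245800_1 was as bright in UF as in OFF-M and brighter in RF, at 9.89 and 9.47 in UF and 11.18 and 11.55 in RF, with a difference of 1.68 ± 0.33 (adjusted p = 0.00576) that was below the limit. GO245994_1 is annotated with the synthesis of jasmonic acid, a wound hormone. Its leaf values lay between 8.33 and 10.92, whereas it gave 15.12 and 15.22 in UF and 14.62 and 14.63 in RF, close to the highest signal of any probe set, 15.8. Where a signal is that high, a difference on the array can be too small. 

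The list of protein terms held 2 members of its 12 olive ESTs, and both of these members fell with ripening. Over the 12 ESTs 2 were called higher in RF and 4 higher in UF, with a median of 0.13. Of all olive ESTs 3.73% and 17.3% were called in these directions. FN998690_1, sorted under defense, also carries proteolysis and had RF above UF by 1.72, which was not called. GO243680_1, annotated with proteolysis and with the breakdown of methylglyoxal, a reactive by-product of sugar breakdown, gave 10.87 and 10.29 in OFF-J, 12.90 and 12.85 in OFF-M, 11.33 and 11.72 in ON-J and 11.94 in ON-M. It gave 9.65 and 9.63 in UF and 6.78 and 6.15 in RF, a fall of 3.17 ± 0.30 (adjusted p = 0.00016). GO245657_1, annotated with protein metabolism and embryo development, fell from 9.78 and 9.74 to 7.34 and 8.16, by 2.01 ± 0.35 (adjusted p = 0.00345). That call was the least stable of the named ones, since the difference was -1.60 without RF replicate 1, -1.99 without UF replicate 1 and -1.002 with olive-median centring.

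Members with chlorophyll terms were 2 of 5 in the tables. GO244708_1 was dim, with 5.85 and 5.04 in OFF-J, 7.63 and 7.72 in OFF-M, 6.13 and 6.44 in ON-J and 5.08 in ON-M, so that it stood clear of the random control by more than 2 in OFF-M alone. GO245562_1, whose terms also include the light reactions of photosynthesis and the route to isoprenoid precursors in plastids, gave 10.73 and 10.11 in OFF-J and 12.38 and 12.59 in OFF-M, then 11.09 and 11.49 in ON-J and 11.85 in ON-M. Neither was called between the fruits, at -1.01 ± 0.35 (adjusted p = 0.0554) and -0.34 ± 0.36 (adjusted p = 0.491), and with olive-median centring both differences lay above 0.

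The remaining annotated members were few in each list. FL684259_1, from fruitlets and annotated with phosphorylation, the transfer of phosphate groups that kinases carry out, gave 7.71 and 6.78 in OFF-J, 9.60 and 9.56 in OFF-M, 7.91 and 8.26 in ON-J and 6.87 in ON-M. FL684259_1 fell from 12.11 and 12.06 in UF to 6.39 and 5.03 in RF, the second of them below the random control, by 6.38 ± 0.45 (adjusted p = 3e-05). GO245678_1, annotated with oxidative and salt stress, had off-year and on-year differences of 2.36 and -0.64, and it was at 12.83 and 12.78 in UF and 14.57 and 14.46 in RF. That difference of 1.71 ± 0.26 (adjusted p = 0.00196) was below the limit. GO244837_1, annotated with the start of DNA replication, gave 7.31 and 7.14 in UF and 5.21 and 5.41 in RF, just below the random control. Its difference of -1.92 ± 0.37 (adjusted p = 0.00559) was not called.

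**Figure D4:**
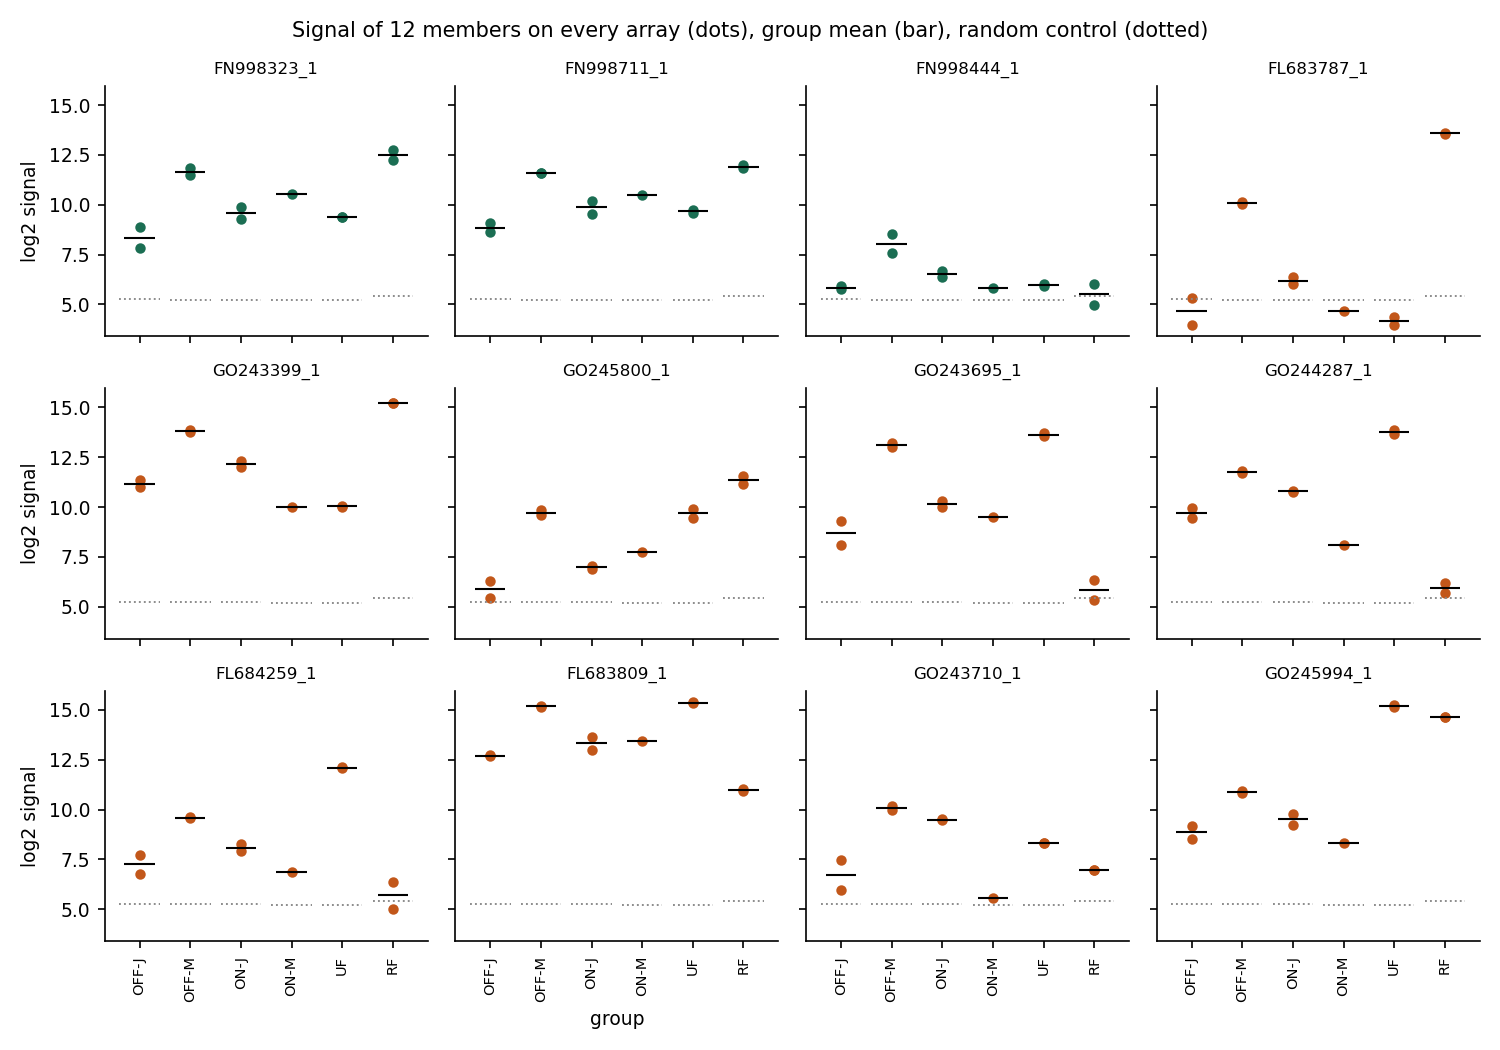
Log2 signal of 12 members on every array (dots) by group, with the group mean as a bar and the random control as a dotted line. FN998323_1, FN998711_1 and FN998444_1 are carbohydrate ESTs, FL683787_1 and GO243399_1 are brightest in RF, and GO243695_1, GO244287_1, FL684259_1 and FL683809_1 are brightest or nearly so in UF and lowest in RF.

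Some of the largest values belonged to members of unknown process. FL683787_1, from fruitlets, had the largest off-year difference of all. It gave 5.33 and 3.96 in OFF-J, around and below the random control, and 10.12 and 10.01 in OFF-M. In the on year it gave 6.35 and 6.01 in ON-J and 4.65 in ON-M, and in fruits 3.98 and 4.37 in UF and 13.60 and 13.57 in RF. The groups with signal were OFF-M and RF, and those near background included ON-M and UF. With the background level in place of the dimmer values, OFF-M exceeded OFF-J for FL683787_1 by at least 28.2-fold, and the EST was at least 332-fold higher in RF than in UF (difference 9.41 ± 0.40, adjusted p = 1.77e-06). 

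GO243695_1, from leaves and fruits, was next in the off year and turned the other way in fruits. It gave 9.30 and 8.12 in OFF-J, 13.20 and 12.99 in OFF-M, 10.02 and 10.28 in ON-J and 9.51 in ON-M. It fell from 13.70 and 13.57 in UF to 6.33 and 5.32 in RF, by 7.81 ± 0.43 (adjusted p = 7.09e-06), where the second RF value was below the random control of its array, so that the size depends on the background. FL683809_1 was bright in every group, at 15.35 and 15.38 in UF and 15.21 and 15.17 in OFF-M, both so near the highest signal of the array that their order cannot be read and differences from them can be too small. It was lowest in RF, at 10.92 and 11.05, a fall of 4.38 ± 0.26 (adjusted p = 1.08e-05). FL683544_1 fell from 11.78 and 11.77 in UF to 6.25 and 6.80 in RF, by 5.25 ± 0.44 (adjusted p = 8.52e-05). Its leaf values were 7.02 and 5.71 in OFF-J, 9.10 and 9.44 in OFF-M, 7.27 and 8.02 in ON-J and 5.78 in ON-M.

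The flower library held 12 members outside the carbohydrate ESTs, of which 3 were called higher in RF and 1 higher in UF. Of the library's ESTs outside the membership 1.53% and 7.65% were so called. Of the whole library, which includes the carbohydrate ESTs, 9.51% and 6.74% were. FN997779_1, of unknown process, was among the 3 called higher in RF. It gave 6.68 and 5.58 in OFF-J, 8.70 and 9.04 in OFF-M, 6.84 and 7.57 in ON-J and 6.23 in ON-M. It gave 5.34 and 4.91 in UF, around the random control, and 8.22 and 8.19 in RF, which is at least 7.98-fold higher (difference 3.09 ± 0.39, adjusted p = 0.000849). FN998415_1 had an off-year difference of 3.41 and an on-year difference of -0.08, and it gave 7.96 and 7.83 in UF and 9.44 and 10.11 in RF. Its fruit difference of 1.88 ± 0.45 (adjusted p = 0.0138) reached 2.22 without RF replicate 1.

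In the on year the ON-M value was above both ON-J arrays for 68 of the 143 members, between them for 47 and below both for 28. The rule holds the on-year difference below 1, so this split in part describes the choice. The split was not counted over all olive ESTs. The on-year difference was below 0 for 30 of the 52 others and for 14 of the 91 carbohydrate ESTs, beside 3525 of all 5543 olive ESTs. It was -2 or less for 3 members. GO243710_1, annotated only as metabolic process, had the lowest, -3.91. It gave 9.54 and 9.46 in ON-J and 5.58 in ON-M, against 7.47 and 5.99 in OFF-J and 10.16 and 9.97 in OFF-M. On the arrays the order of the leaf stages was thus reversed between the years. The study also measured GO243710_1 by quantitative RT-PCR, and its cycle values relative to ribosomal RNA did not show the on-year fall. By that measure ON-M was not below ON-J, while OFF-M was above OFF-J as on the arrays. GO243399_1, annotated with biosynthesis, gave 11.998 and 12.31 in ON-J and 10.01 in ON-M, against 11.35 and 11.00 in OFF-J and 13.76 and 13.87 in OFF-M. In fruits GO243399_1 rose from 10.06 and 10.01 in UF to 15.23 and 15.20 in RF, by 5.18 ± 0.23 (adjusted p = 2.05e-06), with RF signals so near the highest of the array that the difference can be too small. The third was GO244287_1, the cell wall EST above, at -2.72. Each of these differences rests on the single ON-M array.

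Olive ESTs lay close on both sides of the limits that define the membership. Just inside the off-year limit of 2 were FN998334_1 at 2.00, GO245994_1 at 2.01 and FN998032_1 at 2.01, and just outside were FN998333_1 at 1.995, FN998503_1 at 1.994 and FN998679_1 at 1.993. Just inside the on-year limit of 1 were FN998323_1 at 0.98, FN998669_1 at 0.98 and GO245328_1 at 0.97, and just outside were FN997722_1 at 1.03, GO242845_1 at 1.11 and GO244484_1 at 1.11.

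The membership moved with the arrays and with their scaling. The OFF-J arrays differed from each other, replicate 2 being lower than replicate 1 by a median of 0.70 over the members, so 220 olive ESTs met the rule without OFF-J replicate 1 and 104 without OFF-J replicate 2. The olive median was lowest among the leaf arrays in ON-M, at 10.66, and was 10.80 on OFF-J replicate 2. With each array centred on its olive median 53 of the 143 stayed members, 34 of them carbohydrate ESTs. Under that scaling the 143 had a median off-year difference of 2.22 and a median on-year difference of 0.88, in place of 2.64 and 0.22, and the on-year difference was above 0 for 124 of them in place of 99. The part of these level differences in the contrast between the years was not tested.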

How the data were processed

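RNA was labelled with Cy3 and hybridized to a one-colour oligonucleotide array. The authors quantified the spots, subtracted background, applied quantile normalization and RMA, and deposited 1 log2 value per probe set and array. These deposited log2 values entered the main calculations unchanged. Alternatives that rescaled them, and folds taken against the random control, are named where they are given. Each olive probe set had 3 probes. A deposited table of averaged log2 values equalled the array means. For RMA, a version is not given in the sources used here. The reference gene table matched 0 probe sets, so that processes and libraries are those of the study's tables, which hold 541 of the olive ESTs; the library of the rest was read from the prefix of the identifier, which went against the named library for 0 of 540 ESTs.

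Samples were grouped by their labels. Probe sets were fitted in limma 3.58.1 (R 4.3.3) with 1 mean for each of 6 groups, 5 residual and 3.67 prior degrees of freedom, two-sided, with Benjamini-Hochberg adjustment over 54615 probe sets. The fit pools the spread of leaf and fruit arrays. The script was tested on simulated data. Precision is limited by the number of arrays. Where a group mean was below the random control, the fold was taken against the control's level and written as "at least". Other calculations used Python 3.11.15 with pandas 2.3.3 and numpy 2.4.6.

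The members and the lists were chosen with earlier results of these data known. The members named were the 10 with the largest off-year difference, 5 called members in each direction between the fruits, all with an annotated process other than carbohydrate metabolism alone, those with an on-year difference of -2 or less, the 3 on each side of each limit, and the carbohydrate ESTs with the highest, median and lowest fruit difference. Terms were sorted into lists by keywords, each EST under the first that matched. Alternatives were other scalings, filters, thresholds and tests, the averaged table and each array left out in turn. The removal of a brightness trend over the olive ESTs, with a lowess smoother, was added after the data were seen.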

Additional observations from a re-analysis of the deposited data

How the results depend on the processing

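No paired analysis was possible because the labels give no replicate number to a single array. Fruit calls: without one array at a time, 56 to 68 members were called higher in RF and 12 to 18 higher in UF. Olive-median centring gave 105 and 10, a log2 difference of at least 1 gave 104 and 25, and the methods' t-test with adjustment gave 1 and 0, beside 64 and 15 without it, since it has 2 arrays a group and no shared spread. With the brightness trend removed, chosen after seeing the data, the calls were 89 and 11. The median RF minus UF over the members was 2.73 after olive-median centring and 2.43 after the trend was removed, and over the carbohydrate ESTs 3.26 and 2.76. Olive-median centring moved the median RF minus UF of all probe sets from 0.03 to 1.04 and of the olive ESTs from -0.11 to 0.90, and differences under it are to be read against that shift. 

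Membership: 53 ESTs met the rule with olive-median centring, 61 with the brightness trend removed, 44 with an on-year difference below 0 and 34 with an off-year difference of at least 3, all of them members; without one leaf array at a time the number was 104 to 220. The cause of these shifts was not tested. Named members: with olive-median centring GO244708_1 came to 0.0025, GO245562_1 to 0.67, GO245994_1 to 0.46 and FN998444_1 to 0.52, against negative values as deposited. Without one fruit array at a time GO245562_1 ranged from -0.83 to 0.15 and FN998444_1 from -0.996 to 0.028, each lowest without RF replicate 2 and highest without RF replicate 1. None of these was called. With that centring 9 named members outside the call gained it, all with RF above UF, and 2 called ones, GO245328_1 and GO245657_1, lost it. With the fruit arrays alone all 38 named members kept their side of the limits.

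Depth: 8 members had a mean below the random control in UF and 5 in RF, 5 in OFF-J and 4 in ON-M, and the size of their differences depends on the background.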
